A study of Homo sapiens with 8 samples.

Results

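CDK2 is the cyclin-dependent kinase that was targeted by short hairpin RNAs (shRNAs) in NB4, an established human cell line of acute promyelocytic leukaemia. The 6 shCDK2 arrays of the study are described here as 2 sides of 3 arrays each, out of 8 arrays in all. The strong side held shCDK2 #10 at day 2, shCDK2 #10 at day 5 and shCDK2 #3 at day 5. The weak side held shCDK2 #1 at day 2, shCDK2 #1 at day 5 and shCDK2 #3 at day 2. The sides were chosen from the measured values of these same arrays, so every difference between them is a description without a test, and none supports the grouping. The other 2 arrays carried a scrambled control, 1 at day 2 and 1 at day 5. All cells, the control cells included, had received lentivirus, at a multiplicity of infection of 10, and RNA was taken 2 days later, given as an early stage of differentiation, or 5 days later, given as a late one. No agent other than the virus is named for any group, and each construct and day had 1 array, labelled from 6 micrograms of total RNA. Whether any 2 arrays hold RNA of separate cultures is not in the labels. P-values below rest on how far the change with time differed between constructs. With 1 array each, that spread mixes differences between constructs with differences between arrays, which may be technical. Values are log2 signals, on which 1 unit is a factor of 2. Wherever an array is not named, strong values are given in the order #10 day 2, #10 day 5 and #3 day 5, weak values in the order #1 day 2, #1 day 5 and #3 day 2, and scramble values as day 2 and day 5.

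CDK2 pairs with cyclins E and A and drives cells from G1 through S phase, in part by phosphorylating the retinoblastoma protein and so freeing E2F transcription factors. NB4 cells carry the PML-RARA fusion, which holds them at the promyelocyte stage, and they can be driven towards neutrophil-like cells, for instance by retinoic acid. Such maturation is known for the appearance of the integrin CD11b, Fc receptors and chemoattractant receptors on the surface and for a decline of proliferation genes. Type I interferon induces antiviral genes through the interferon response element in their promoters, and NF-kB induces many cytokine and chemokine genes in myeloid cells.

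Array medians lay between 6.30 and 6.43 log2 over all probe sets, and no 2 arrays were identical. Of 18132 genes, each taken from its brightest probe set, 12845 had a mean over the 8 arrays above 5.83 log2 and were examined. Promyelocyte genes were read in every array. MPO, the myeloperoxidase of primary granules, gave 13.37, 14.09 and 14.26 log2 in the strong arrays, 14.18, 14.12 and 14.39 in the weak arrays and 14.35 and 14.14 in the scramble arrays. ELANE, the neutrophil elastase gene, stayed between 5.83 and 6.35 log2 on all 8 arrays, close to the value a gene had to exceed to be examined. In bulk RNA, fewer cells of a type and less RNA per cell cannot be told apart.

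The sides differed in the size of the response, which is how they were chosen. Counted as genes 1 log2 or more from the scramble array of the same day, the response was 1391 genes in #10 at day 2, 785 in #10 at day 5 and 840 in #3 at day 5. It was 105 genes in #1 at day 2, 114 in #1 at day 5 and 247 in #3 at day 2. The smallest strong response, 785 genes in #10 at day 5, and the largest weak one, 247 genes in #3 at day 2, are the values on each side of the divide, a ratio of 3.18. The standard deviation of the changes over all genes was 0.65, 0.63 and 0.61 log2 in the strong arrays and 0.32, 0.27 and 0.37 in the weak arrays. The 2 scramble arrays differed from each other by 1 log2 or more in 136 genes, more than either #1 array differed from its control. Higher genes outnumbered lower ones in every strong array, by 874 to 517, 716 to 69 and 796 to 44. In the weak arrays the counts were 39 higher and 66 lower, 41 and 73, and 129 and 118. Set against the scramble array of the other day, the counts were 993, 1061 and 958 in the strong arrays and 68, 204 and 419 in the weak arrays.

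**Figure D1:**
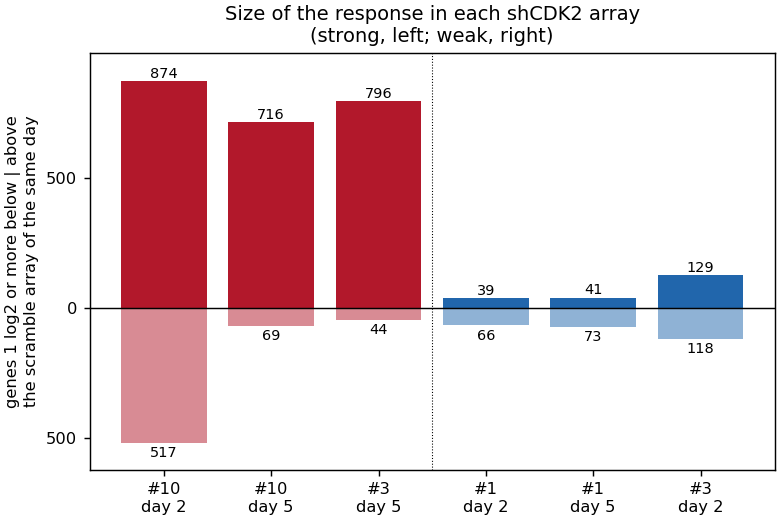
Genes 1 log2 or more above (up) or below (down) the scramble array of the same day, for each shCDK2 array, with the strong arrays left of the dotted line and the weak arrays right of it. The 3 strong arrays have 716 to 874 higher genes and the 3 weak arrays 39 to 129.

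CDK2 itself did not separate the sides. On its brightest probe set CDK2 gave 7.54, 8.09 and 7.72 log2 in the strong arrays, 7.78, 7.89 and 9.03 in the weak arrays and 9.10 and 8.19 in the scramble arrays. The #1 arrays, on the weak side, thus read as low as the strong arrays. Relative to the scramble array of its day, CDK2 signal was 34.0%, 92.9% and 72.3% in the strong arrays and 39.9%, 81.1% and 95.0% in the weak arrays. The second probe set gave 7.28, 7.81 and 7.46 log2 in the strong arrays, 7.36, 7.42 and 8.88 in the weak arrays and 9.19 and 7.85 in the scramble arrays. The dimmest gave 7.03, 7.30 and 7.23 in the strong arrays, 7.18, 7.34 and 7.62 in the weak arrays and 7.51 and 7.53 in the scramble arrays. The sides overlapped on all 3 probe sets. Hairpin #1 at day 2 had 39.9% of the control's CDK2 signal with 105 responding genes, while #10 at day 2 had 34.0% with 1391. The array labelled shCDK2 #3 at day 2 was near the scramble level of its day, and the array labelled scramble at day 5 was low for a control, so CDK2 goes against both labels on the 2 brighter probe sets. On the dimmest probe set the 2 scramble arrays were alike. The count of genes apart and the main counts of the gene lists below are therefore also given without the array labelled shCDK2 #3 at day 2, as alternatives in which the weak side is the 2 #1 arrays.

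**Figure D2:**
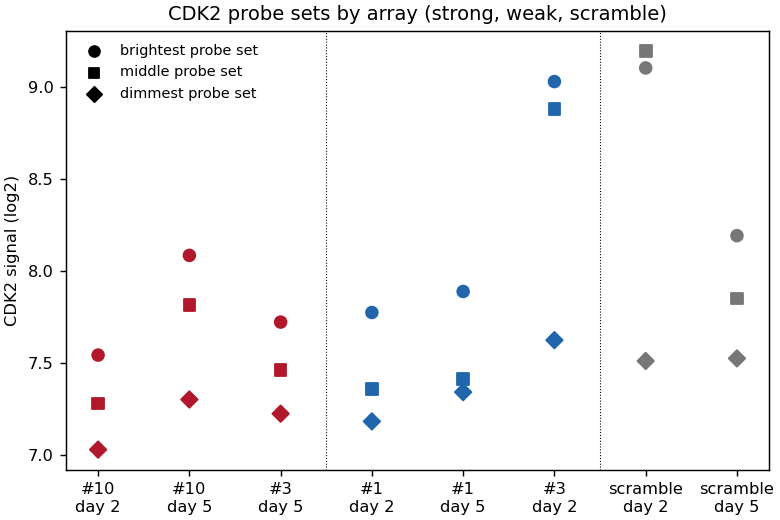
CDK2 signal (log2) on its 3 probe sets in each array, with strong arrays at the left, weak arrays in the middle and scramble arrays at the right. On the brightest probe set both #1 arrays lie among the strong arrays, and the array labelled shCDK2 #3 at day 2 lies near scramble at day 2.

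A gene was called apart where the lowest strong array lay 1 log2 or more above the highest weak array, or the highest strong array as far below the lowest weak array. This distance is the gap given below. Of 12845 genes, 144 were apart and higher in the strong arrays (1.12%) and 0 were apart and lower (0%). Without the array labelled shCDK2 #3 at day 2, 237 were apart and higher and 2 lower, the redox genes PIR and NQO1. With any gap at all, 1866 genes were higher in all 3 strong arrays (14.5%) and 3153 were lower (24.5%). Without the array labelled shCDK2 #3 at day 2 these counts rose to 2801 and 4322 of 12845. List counts given below without that array stand beside these larger counts and the 237 apart. These shares belong to the contrast that chose the sides, and nothing is read from them. The higher genes reached far and the lower ones did not. A gap of 2 log2 or more was found for 28 higher genes, while the widest gap of a lower gene was -0.92, in ROPN1L. All 144 genes had both scramble arrays below the lowest strong array, 129 of them by 1 log2 or more. The median spread of these genes was 0.86 log2 among the strong arrays and 0.57 among the weak arrays. Their median difference between the sides was 2.23, which is large because the genes were chosen for a wide gap. Of the 144, 85 were highest in #10 at day 5, 30 in #3 at day 5 and 29 in #10 at day 2. The sides can also be read as 3 disjoint pairs of arrays, #10 minus #1 at day 2, #10 minus #1 at day 5 and #3 at day 5 minus day 2. By 1 log2 or more, 240 genes were higher in all 3 pairs and 0 were lower in all 3.

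The 12 genes with the widest gap encode secreted proteins, receptors and regulators of myeloid cells. SPP1, which encodes the secreted phosphoprotein osteopontin, gave 12.82, 14.71 and 14.19 log2 in the strong arrays, 8.61, 8.56 and 8.67 in the weak arrays and 7.64 and 8.73 in the scramble arrays. The weak arrays lay within the range of the scramble arrays, and every strong array was at least 4.14 log2 above every weak one. SERPINA1, the gene of the protease inhibitor alpha-1 antitrypsin, gave 10.62, 12.64 and 10.85 log2 in the strong arrays, 6.66, 6.61 and 6.63 in the weak arrays and 6.07 and 6.55 in the scramble arrays. It was apart on 3 of its 4 probe sets. C5AR1, the receptor for the chemoattractant complement fragment C5a, gave 8.60, 8.98 and 8.97 log2 in the strong arrays, 4.53, 4.95 and 4.28 in the weak arrays and 4.13 and 4.61 in the scramble arrays. Its weak and scramble values all lay under the 5.83 log2 a mean had to exceed, so it was examined only through the strong arrays and the size of its gap is uncertain. The same holds below for PTX3, LPAR6 and FLT1. C5AR1 was apart on 1 of its 2 probe sets, with a gap of only 0.03 on the other. IL1B, the gene of the inflammatory cytokine interleukin 1 beta, gave 11.16, 13.69 and 12.94 log2 in the strong arrays, 7.91, 7.79 and 7.23 in the weak arrays and 7.02 and 8.12 in the scramble arrays. The pentraxin gene PTX3, which encodes a soluble pattern recognition molecule, gave 7.79, 9.84 and 10.23 log2 in the strong arrays, 4.17, 4.25 and 4.64 in the weak arrays and 4.22 and 4.89 in the scramble arrays. Both were lowest among the strong arrays in #10 at day 2. ZFP36L1, whose protein directs AU-rich mRNAs to decay, gave 10.68, 11.98 and 11.43 log2 in the strong arrays, 6.50, 7.20 and 7.64 in the weak arrays and 5.46 and 6.66 in the scramble arrays. This gene rests on 1 of 6 probe sets, since the other 5 were not apart.

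LPAR6, a receptor for lysophosphatidic acid, gave 8.11, 7.70 and 8.27 log2 in the strong arrays, 4.86, 4.76 and 4.58 in the weak arrays and 4.14 and 5.35 in the scramble arrays. The strong arrays spanned less than 1 log2 there, and the weak and scramble arrays were dim. TNFSF10, the gene of the death ligand TRAIL, gave 10.00, 11.96 and 10.33 log2 in the strong arrays, 7.29, 6.63 and 7.25 in the weak arrays and 6.54 and 7.33 in the scramble arrays, and all 3 of its probe sets were apart. FLT1, a receptor for vascular endothelial growth factor, gave 8.32, 9.96 and 8.28 log2 in the strong arrays, 5.78, 5.49 and 5.53 in the weak arrays and 5.66 and 5.05 in the scramble arrays. Its weak and scramble values were dim, and its strong values were alike in #10 at day 2 and #3 at day 5 and higher in #10 at day 5. FCGR2B, an inhibitory Fc gamma receptor, gave 10.74, 12.06 and 10.84 log2 in the strong arrays, 6.34, 6.21 and 8.24 in the weak arrays and 5.93 and 6.12 in the scramble arrays. Here the array labelled shCDK2 #3 at day 2 stood about midway, and without it the gap was 4.40 instead of 2.50. ITGAM, which encodes the integrin chain CD11b used as a marker of neutrophil and monocyte maturation, gave 11.16, 10.20 and 10.51 log2 in the strong arrays, 7.70, 7.57 and 7.21 in the weak arrays and 6.88 and 8.14 in the scramble arrays. GBP2, an interferon-inducible GTPase gene, gave 10.08, 9.23 and 9.15 log2 in the strong arrays, 6.66, 4.95 and 6.71 in the weak arrays and 5.17 and 6.29 in the scramble arrays. The scramble arrays spanned 1.27 log2 for ITGAM and 1.12 for GBP2, and the strong arrays lay above both of them in each case. GBP2 was apart on 1 of its 2 probe sets, with a gap of 0.43 on the other, and FLT1 on 4 of 5.

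**Figure D3:**
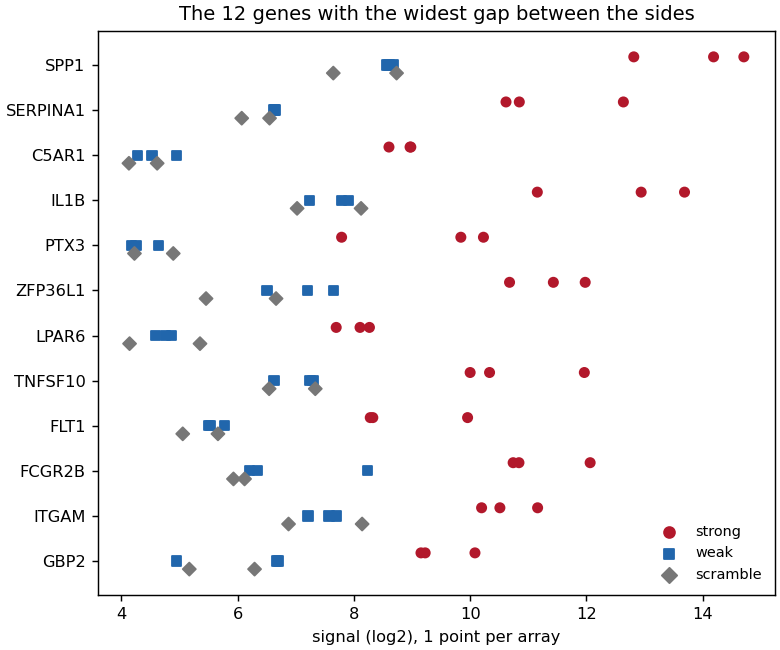
Signal (log2) of the 12 genes with the widest gap, 1 point per array, strong circles above weak squares and scramble diamonds. The gaps run from 4.14 log2 in SPP1 to 2.45 in GBP2, and FCGR2B has 1 weak array, labelled shCDK2 #3 at day 2, between the groups.

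Genes induced by interferon were higher in the strong arrays. Of 30 examined members of a list of antiviral effectors, 22 were higher in all 3 strong arrays and 9 were apart, with 0 lower, beside 14.5% and 1.12% of all genes. The median difference of the list was 1.45 log2, against -0.09 for all genes. Without the array labelled shCDK2 #3 at day 2 the counts were 23 and 9. IFIT1, which encodes a protein that binds foreign RNA, gave 8.85, 12.53 and 10.20 log2 in the strong arrays, 6.93, 6.32 and 6.89 in the weak arrays and 6.72 and 6.53 in the scramble arrays. IFIT2, of the same family, gave 9.42, 10.82 and 10.43 log2 in the strong arrays, 7.09, 6.27 and 5.86 in the weak arrays and 6.41 and 6.0 in the scramble arrays. IFIT3 gave 8.85, 11.57 and 9.69 log2 in the strong arrays, 7.39, 6.84 and 6.71 in the weak arrays and 6.76 and 7.13 in the scramble arrays. CMPK2, a mitochondrial nucleotide kinase induced by interferon, gave 6.86, 9.93 and 7.47 log2 in the strong arrays, 5.48, 4.96 and 4.89 in the weak arrays and 5.37 and 5.03 in the scramble arrays. Its weak and scramble values all lay under 5.83 log2, so it was examined only through the strong arrays and the size of its gap is uncertain. CMPK2 was apart on 1 of its 3 probe sets, and IFIT2 on 1 of 2, with a gap of 0.44 on the other. In all 4 genes every weak array lay within 1 log2 of the scramble array of its day, and #10 at day 5 was the highest array. The list's medians in the strong arrays were 0.94, 2.45 and 0.94 log2 above the scramble of the day, and in the weak arrays 0.20, -0.04 and 0.17.

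Sensors and transcription factors of the pathway had 10 of 15 members higher in all strong arrays and 0 lower, with a median difference of 0.73 log2, beside 14.5% and 24.5% of all genes. Without the array labelled shCDK2 #3 at day 2, 10 were higher and 1 was lower. RIGI, a sensor of viral RNA, gave 8.40, 11.26 and 9.10 log2 in the strong arrays, 6.96, 6.61 and 6.56 in the weak arrays and 6.70 and 6.64 in the scramble arrays. IFIH1, the sensor MDA5, gave 7.31, 9.83 and 8.20 log2 in the strong arrays, 6.14, 6.89 and 6.69 in the weak arrays and 5.86 and 6.40 in the scramble arrays, so that it did not overlap but was not apart by 1 log2. IRF9, the DNA-binding subunit of the factor that reads type I interferon signals, gave 9.93, 10.38 and 10.15 log2 in the strong arrays, 7.76, 7.46 and 6.89 in the weak arrays and 6.86 and 7.79 in the scramble arrays. Unlike the IFIT genes, its 3 strong values lay within 0.46 log2 of each other. IRF7, the amplifier of interferon production, gave 9.88, 11.47 and 10.41 log2 in the strong arrays, 8.72, 8.93 and 8.78 in the weak arrays and 8.55 and 8.89 in the scramble arrays. For antigen presentation on MHC class I, 11 of 21 members were higher in all strong arrays and 0 lower, with a median of 0.44. 14 were higher and 1 was lower without the array labelled shCDK2 #3 at day 2. TAP1, the peptide transporter, gave 9.71, 11.11 and 9.65 log2 in the strong arrays, 8.50, 8.47 and 8.53 in the weak arrays and 8.34 and 8.48 in the scramble arrays. HLA-B gave 12.47, 12.73 and 12.70 log2 in the strong arrays, 11.16, 11.00 and 11.22 in the weak arrays and 10.76 and 11.20 in the scramble arrays, although probe sets of HLA genes can also bind transcripts of their near-identical relatives. The 2 most different members were therefore 1 transporter and 1 heavy chain gene, both apart.

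Promoters of 3 genes are shown because they hold known regulatory letters. They are TNFSF10, of the genes with the widest gap, IFIT1 of the antiviral list and CXCL2 of the chemokine list described next. They are RefSeq sequences of GRCh38.p14, from 250 bases before to 50 after the start of the gene, printed 5′ to 3′ on the gene's strand. Capitals mark GAAANNGAA, the core of the interferon response element, and GGGNNTTTC, part of an NF-kB site, searched on both strands. The TNFSF10 promoter lies at chr3:172523381-172523680 (minus strand), the IFIT1 promoter at chr10:89392373-89392672 (plus strand) and the CXCL2 promoter at chr4:74099146-74099445 (minus strand).
TNFSF10: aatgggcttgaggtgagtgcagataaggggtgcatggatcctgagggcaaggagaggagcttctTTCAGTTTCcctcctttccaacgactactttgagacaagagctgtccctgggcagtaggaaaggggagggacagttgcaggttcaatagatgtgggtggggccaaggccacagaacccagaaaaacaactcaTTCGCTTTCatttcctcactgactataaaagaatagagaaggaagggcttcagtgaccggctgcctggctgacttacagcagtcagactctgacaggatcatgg
IFIT1: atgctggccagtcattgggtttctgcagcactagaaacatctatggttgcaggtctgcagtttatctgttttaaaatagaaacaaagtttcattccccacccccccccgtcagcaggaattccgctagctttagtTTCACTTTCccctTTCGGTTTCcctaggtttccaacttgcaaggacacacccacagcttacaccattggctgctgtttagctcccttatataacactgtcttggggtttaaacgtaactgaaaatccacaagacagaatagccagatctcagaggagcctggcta
CXCL2: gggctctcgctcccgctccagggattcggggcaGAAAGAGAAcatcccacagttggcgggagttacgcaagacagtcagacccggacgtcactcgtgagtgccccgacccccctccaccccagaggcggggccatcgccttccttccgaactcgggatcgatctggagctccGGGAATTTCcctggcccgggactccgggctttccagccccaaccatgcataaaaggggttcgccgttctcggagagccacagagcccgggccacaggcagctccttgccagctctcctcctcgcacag
In TNFSF10 the interferon letters start 186 and 54 bases before the gene's start, and in IFIT1 115 and 102 bases before it. In CXCL2, a neutrophil chemokine gene, the NF-kB letters start 78 bases before it and 1 match to the interferon letters lies 217 bases before it. Of the 24 antiviral effector genes with a promoter in the table, 17 held GAAANNGAA, which is 70.8%. Among the genes apart and higher it was 20 of 119, or 16.8%, and among all examined genes with a promoter 6.10%, with 8.29% over all 27305 promoters. A match is a description of the letters and not evidence of binding.

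The NF-kB list, which joins subunits, feedback inhibitors and cytokines, had 12 of 26 members higher in all strong arrays, 5 of them apart, and 2 lower in all, beside 14.5%, 1.12% and 24.5% of all genes. Its median difference was 0.68 log2. After omission of the array labelled shCDK2 #3 at day 2, 12 were higher, 5 apart and 3 lower. IL1A, the second interleukin 1 gene, gave 8.75, 11.90 and 10.92 log2 in the strong arrays, 6.35, 6.49 and 5.54 in the weak arrays and 5.60 and 6.34 in the scramble arrays. IER3, an early response gene against cell death, gave 7.43, 12.98 and 10.58 log2 in the strong arrays, 6.25, 6.68 and 6.25 in the weak arrays and 6.0 and 6.49 in the scramble arrays. It separated the sides by only 0.75, because #10 at day 2 was 3.15 log2 below the nearest other strong array. BCL2A1, an anti-apoptotic BCL2 relative, gave 8.76, 10.38 and 9.12 log2 in the strong arrays, 6.69, 6.25 and 5.79 in the weak arrays and 5.93 and 6.19 in the scramble arrays. BCL2A1 was apart on 1 of its 2 probe sets, and the sides overlapped on the other. The subunit genes themselves differed less, with differences of 0.67 for NFKB1 and 0.35 for RELA, and the sides overlapped for both.

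Chemokines differed between the sides mostly through the day 5 arrays. Of 14 examined, 8 were higher in all strong arrays, 2 of them apart, and 1 was lower, beside 14.5%, 1.12% and 24.5% of all genes. With the array labelled shCDK2 #3 at day 2 left out, 10 were higher, 3 apart and 1 lower. CCL3, which attracts monocytes and neutrophils, gave 10.71, 13.58 and 12.34 log2 in the strong arrays, 7.28, 8.43 and 7.77 in the weak arrays and 7.50 and 7.49 in the scramble arrays, although its probe set may also bind transcripts of near-identical copies of the gene. CCL7, a monocyte chemoattractant, gave 5.74, 12.42 and 6.70 log2 in the strong arrays, 4.43, 4.64 and 4.50 in the weak arrays and 4.47 and 4.70 in the scramble arrays. CCL8, of the same cluster, gave 5.11, 13.19 and 9.22 log2 in the strong arrays, 5.09, 4.94 and 5.17 in the weak arrays and 4.92 and 4.94 in the scramble arrays. CXCL3, a neutrophil chemoattractant, gave 5.82, 11.45 and 8.06 log2 in the strong arrays, 5.44, 5.69 and 4.96 in the weak arrays and 5.18 and 5.55 in the scramble arrays. CCL8 lay under 5.83 log2 in #10 at day 2 and in all weak and scramble arrays, so it was examined only through the 2 strong day 5 arrays, and the sides overlapped. CCL7 and CXCL3 were as dim in the weak and scramble arrays, and the sizes of these differences are uncertain. The list's median signal was 6.84, 11.94 and 7.94 log2 in the strong arrays, 7.12, 7.06 and 6.98 in the weak arrays and 6.93 and 7.20 in the scramble arrays. The GGGNNTTTC letters were in 4 of 11 chemokine promoters (36.4%), 7 of 23 of the NF-kB list (30.4%) and 4.69% of all examined genes with a promoter.

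Immediate early factors had 11 of 27 members higher in all strong arrays, 6 of them apart, and 0 lower, beside 14.5%, 1.12% and 24.5% of all genes. 11 were higher, 6 apart and 4 lower without the array labelled shCDK2 #3 at day 2. DUSP5, a nuclear phosphatase that switches off ERK, gave 8.28, 9.46 and 8.39 log2 in the strong arrays, 6.06, 6.02 and 6.07 in the weak arrays and 5.42 and 5.58 in the scramble arrays. JUN, a subunit of the AP-1 factor, gave 9.38, 10.96 and 9.34 log2 in the strong arrays, 7.11, 8.13 and 6.82 in the weak arrays and 6.30 and 7.08 in the scramble arrays. ZFP36, which encodes the mRNA decay factor tristetraprolin, gave 10.64, 10.72 and 11.37 log2 in the strong arrays, 9.53, 8.95 and 8.71 in the weak arrays and 9.10 and 9.85 in the scramble arrays. The weak arrays differed among themselves for JUN by 1.31 log2, with #1 at day 5 the highest. JUN was higher in all strong arrays on 3 of its 4 probe sets and apart on 1. FOS and EGR1, classical members of the same response, had differences of 0.02 and -0.04 and overlapped.

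Surface receptors of mature myeloid cells were higher in the strong arrays. Of 14 integrin and Fc receptor genes examined, 9 were higher in all strong arrays, 7 were apart and 0 were lower, beside 14.5% and 1.12% of all genes. The counts were the same without the array labelled shCDK2 #3 at day 2. FCER1G, the signalling chain shared by Fc receptors, gave 10.58, 12.19 and 10.69 log2 in the strong arrays, 9.04, 8.46 and 8.97 in the weak arrays and 8.48 and 8.62 in the scramble arrays. ITGB2, the beta chain that pairs with CD11b, gave 11.88, 11.81 and 12.26 log2 in the strong arrays, 9.96, 9.55 and 9.68 in the weak arrays and 9.25 and 10.42 in the scramble arrays. ITGAX, which encodes the integrin chain CD11c, differed by 2.18 with a gap of 1.55, and FCGR1A, the high-affinity IgG receptor gene, by 1.66 with a gap of 1.32. The median of the list was 1.45, 1.80 and 1.54 log2 in the 3 disjoint pairs, so each pair gave a similar value. Taken as a mean over probe sets, the median of 11 examined members was 0.62 instead of 1.47.

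Granule and maturation genes were divided. Of 17 secondary granule and neutrophil maturation genes, 6 were higher in all strong arrays, 1 was apart and 0 were lower, beside 14.5%, 1.12% and 24.5% of all genes. The median was 0.58 log2. After omission of the array labelled shCDK2 #3 at day 2, 7 were higher, 1 apart and 1 lower. S100A9, a calcium-binding alarmin of neutrophils, gave 10.64, 10.27 and 11.24 log2 in the strong arrays, 8.61, 7.63 and 8.84 in the weak arrays and 8.82 and 8.79 in the scramble arrays. Its partner S100A8 gave 10.37, 7.98 and 11.00 log2 in the strong arrays, 8.13, 7.43 and 7.36 in the weak arrays and 8.0 and 8.50 in the scramble arrays, with #10 at day 5 within the range of the weak and scramble arrays. MMP9, the gelatinase gene, gave 12.73, 13.75 and 13.77 log2 in the strong arrays, 11.03, 12.16 and 10.66 in the weak arrays and 9.96 and 11.31 in the scramble arrays. FPR1, a receptor for bacterial formyl peptides, gave 7.43, 8.49 and 8.02 log2 in the strong arrays, 6.71, 6.66 and 6.39 in the weak arrays and 6.43 and 6.43 in the scramble arrays. Its 2 probe sets went opposite ways, 1 higher and 1 lower in all strong arrays. The classic secondary granule genes LTF, LCN2 and CEACAM8 were among 11 members on the array that were too dim to be examined.

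Primary granule and progenitor genes showed little difference, with a median of 0.08 log2. In all strong arrays 2 of 17 were higher and 0 lower, beside 14.5% and 24.5% of all genes. Without the array labelled shCDK2 #3 at day 2, 3 were higher and 0 lower. CFD, the complement factor D gene, gave 10.60, 9.97 and 10.98 log2 in the strong arrays, 8.47, 7.97 and 7.88 in the weak arrays and 8.05 and 8.98 in the scramble arrays and was the 1 member apart. CTSG, the cathepsin G gene, gave 8.02, 8.04 and 8.44 log2 in the strong arrays, 8.60, 8.20 and 9.74 in the weak arrays and 9.29 and 7.97 in the scramble arrays, and MS4A3, a membrane protein of granulocyte precursors, gave 7.74, 9.69 and 9.34 log2 in the strong arrays, 9.80, 8.90 and 10.25 in the weak arrays and 10.75 and 9.02 in the scramble arrays. Both were highest in scramble at day 2 or the array labelled shCDK2 #3 at day 2, and the sides overlapped. Monocyte and macrophage genes had 7 of 14 higher in all strong arrays and 0 apart, beside 14.5% and 1.12% of all genes. Both counts were the same without the array labelled shCDK2 #3 at day 2. CD14, the lipopolysaccharide co-receptor, gave 5.76, 10.65 and 8.43 log2 in the strong arrays, 5.50, 5.45 and 5.29 in the weak arrays and 5.19 and 5.15 in the scramble arrays. CD163, the haemoglobin scavenger receptor, gave 4.70, 10.28 and 7.92 log2 in the strong arrays, 4.88, 4.66 and 4.81 in the weak arrays and 4.57 and 4.86 in the scramble arrays. Both lay under 5.83 log2 in #10 at day 2 and in all weak and scramble arrays, and were higher in both day 5 strong arrays. They were thus examined only through those day 5 arrays, and the sizes of their differences are uncertain. LYZ, the lysozyme gene, gave 10.57, 9.22 and 10.15 log2 in the strong arrays, 8.97, 7.96 and 8.83 in the weak arrays and 8.85 and 8.73 in the scramble arrays, with its lowest strong value in #10 at day 5.

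Hypoxia-inducible genes were higher in the strong arrays, with the array labelled shCDK2 #3 at day 2 partway. Outside glycolysis, 16 of 27 examined genes were higher in all strong arrays, 2 were apart and 2 were lower, beside 14.5%, 1.12% and 24.5% of all genes. The median difference was 1.20 log2. With the array labelled shCDK2 #3 at day 2 left out, the counts were 22, 16 and 2 and the median 1.63. List medians above the scramble of the day were 1.70, 1.81 and 1.74 log2 in the strong arrays and 0.09, 0.21 and 0.94 in the weak arrays. P4HA1, a collagen prolyl hydroxylase subunit, gave 12.44, 11.22 and 12.31 log2 in the strong arrays, 9.61, 8.33 and 10.98 in the weak arrays and 9.73 and 9.25 in the scramble arrays. PLIN2, a lipid droplet coat protein, gave 10.51, 11.21 and 10.22 log2 in the strong arrays, 8.39, 8.75 and 8.62 in the weak arrays and 7.33 and 7.57 in the scramble arrays. SPAG4 gave 8.64, 8.91 and 8.21 log2 in the strong arrays, 6.15, 5.18 and 7.44 in the weak arrays and 4.88 and 5.33 in the scramble arrays and BHLHE41, a transcriptional repressor, gave 9.48, 10.44 and 8.61 log2 in the strong arrays, 7.07, 7.89 and 6.20 in the weak arrays and 6.19 and 6.67 in the scramble arrays. BNIP3L, a receptor for the removal of mitochondria, gave 11.43, 11.41 and 11.60 log2 in the strong arrays, 9.12, 8.98 and 10.33 in the weak arrays and 8.65 and 8.73 in the scramble arrays. For P4HA1, SPAG4 and BNIP3L the array labelled shCDK2 #3 at day 2 was the highest weak array, and for BHLHE41 it was the lowest. Of 3 BHLHE41 probe sets, 1 was higher in all strong arrays and 1 was lower in all.

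Glycolysis genes followed the same pattern in part. Of 20, 7 were higher in all strong arrays, 1 was apart and 0 were lower, beside 14.5%, 1.12% and 24.5% of all genes. There were 14 higher, 6 apart and 1 lower without the array labelled shCDK2 #3 at day 2. HK1, which encodes the first enzyme of the pathway, gave 9.80, 10.70 and 9.45 log2 in the strong arrays, 7.14, 7.54 and 9.29 in the weak arrays and 7.01 and 7.06 in the scramble arrays. PFKFB3, which makes the allosteric activator of phosphofructokinase, gave 10.93, 11.89 and 10.97 log2 in the strong arrays, 9.69, 9.32 and 9.48 in the weak arrays and 9.29 and 8.98 in the scramble arrays. It was apart on 1 of its 4 probe sets, and the sides overlapped on the others. ALDOC, an aldolase gene, gave 11.81, 11.71 and 11.46 log2 in the strong arrays, 9.18, 9.29 and 12.44 in the weak arrays and 9.36 and 8.51 in the scramble arrays, so that its highest value among all arrays was in a weak one. The abundant enzymes ALDOA, ENO1 and LDHA differed by 0.10, 0.02 and 0.13 and overlapped.

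Lysosomal genes had 16 of 23 members higher in all strong arrays, 1 apart and 1 lower, with a median of 0.71 log2, beside 14.5%, 1.12% and 24.5% of all genes. After omission of the array labelled shCDK2 #3 at day 2, 19 were higher, 2 apart and 1 lower. TPP1, a lysosomal peptidase gene, gave 11.64, 11.57 and 12.23 log2 in the strong arrays, 9.92, 9.74 and 10.46 in the weak arrays and 9.67 and 10.01 in the scramble arrays. NPC2, a cholesterol carrier of the lysosome, gave 10.76, 11.06 and 11.21 log2 in the strong arrays, 9.09, 9.14 and 9.86 in the weak arrays and 8.84 and 9.45 in the scramble arrays. The strong arrays spanned less than 1 log2 for each. TPP1 was higher in all strong arrays on 7 of its 9 probe sets and apart on 1. The probe sets of NPC2 were divided, since of 4, 2 were higher in all strong arrays and 2 were lower in all. Apoptosis and death receptor genes had 13 of 28 higher in all strong arrays, 3 apart and 0 lower, beside the same 14.5%, 1.12% and 24.5% of all genes. With the array labelled shCDK2 #3 at day 2 left out, 16 were higher, 5 apart and 0 lower. TNFRSF10B, a receptor for TRAIL, gave 11.11, 10.94 and 10.75 log2 in the strong arrays, 9.78, 9.90 and 9.26 in the weak arrays and 8.83 and 9.61 in the scramble arrays. The decoy receptor gene TNFRSF10D gave 9.04, 8.73 and 9.23 log2 in the strong arrays, 7.60, 7.35 and 7.87 in the weak arrays and 7.01 and 7.27 in the scramble arrays. The pro-apoptotic BAX and BAK1 differed by -0.12 and -0.21 and overlapped.

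Among CDKs, cyclins and CDK inhibitors 6 of 24 were higher in all strong arrays, 4 were lower and 0 were apart, beside 14.5%, 24.5% and 1.12% of all genes. 10 were higher, 6 lower and 1 apart without the array labelled shCDK2 #3 at day 2. Of all 12845 genes, 2801 were then higher, 4322 lower and 237 apart and higher. CDKN1A, which encodes the CDK inhibitor p21, gave 9.16, 10.72 and 8.84 log2 in the strong arrays, 7.87, 8.10 and 7.22 in the weak arrays and 7.0 and 7.84 in the scramble arrays. CCND1, the cyclin D1 gene, gave 8.74, 8.28 and 8.74 log2 in the strong arrays, 7.11, 7.45 and 7.09 in the weak arrays and 7.16 and 7.10 in the scramble arrays. CCNG2, an atypical cyclin gene, gave 7.47, 7.45 and 7.93 log2 in the strong arrays, 5.63, 6.14 and 7.22 in the weak arrays and 5.57 and 6.22 in the scramble arrays. Of its 5 probe sets, 3 were higher in all strong arrays and 1 was lower in all. CDKN1B, the gene of p27, differed by 1.22 with a gap of 0.39, and CDK4 by -0.65 with a gap of -0.27. The list's median of 0.12 log2 turned to -0.0366 after quantile normalization. Among p53 targets 6 of 23 were higher in all strong arrays and 4 lower, or 8 and 5 without the array labelled shCDK2 #3 at day 2. GADD45A, a growth arrest gene, gave 8.57, 8.87 and 8.19 log2 in the strong arrays, 7.53, 7.40 and 7.10 in the weak arrays and 7.54 and 6.70 in the scramble arrays. The median of 0.11 log2 turned to -0.0283 without #10 at day 2.

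**Figure D4:**
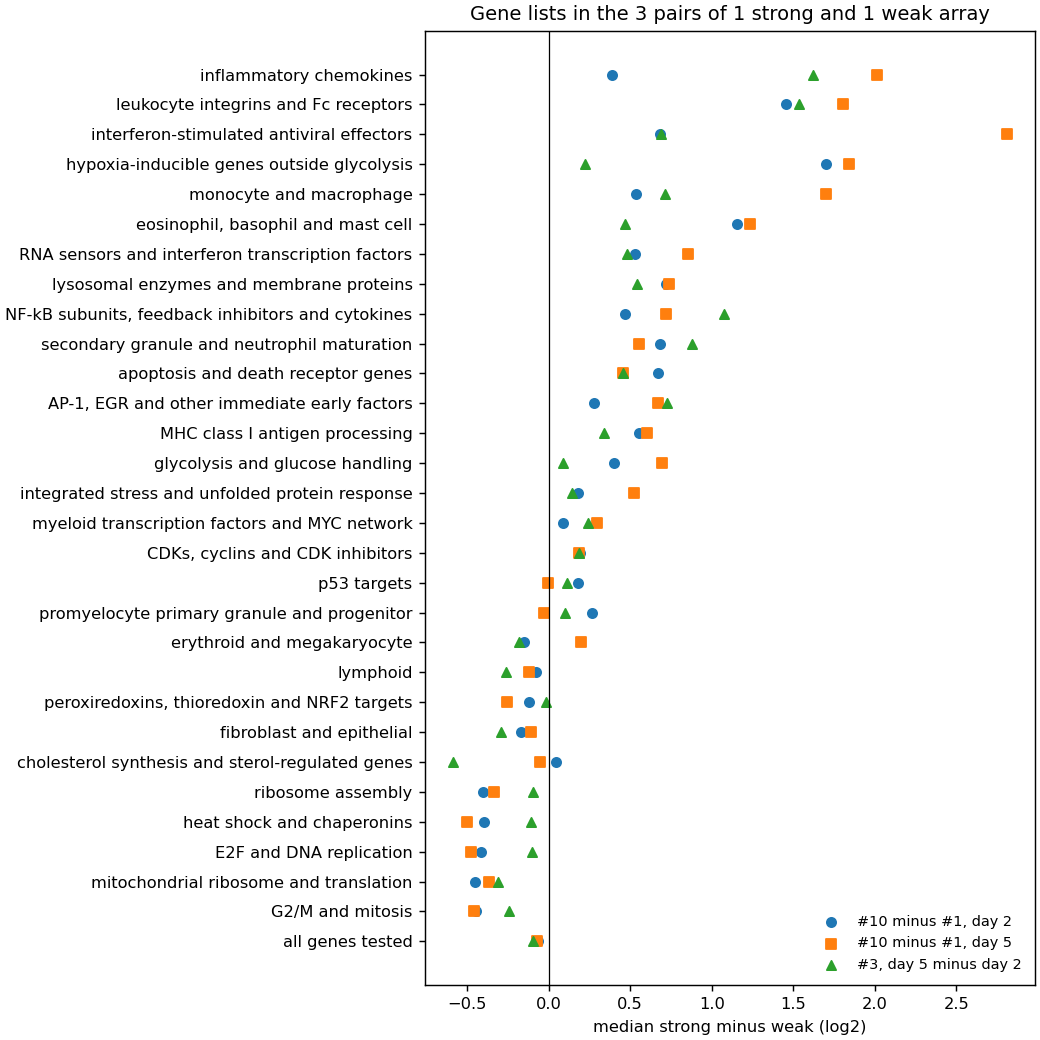
Median over each gene list of strong minus weak (log2), 1 point for each of the 3 disjoint pairs of arrays, with all genes examined at the bottom. Integrin and Fc receptor genes have 1.45 to 1.80 in all 3 pairs, whereas antiviral effectors have 0.68, 2.81 and 0.69 and hypoxia-inducible genes 1.70, 1.84 and 0.22.

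Proliferation genes were lower in the strong arrays, by small amounts. Of 49 genes of G2/M and mitosis, 26 were lower in all 3 strong arrays and 0 were higher, beside 24.5% and 14.5% of all genes, and the median difference was -0.39 log2 against -0.09. After omission of the array labelled shCDK2 #3 at day 2, 31 were lower, beside 4322 of all 12845 genes. All 49 had a lower mean in the strong arrays and 0 were apart. CDC20, an activator of the anaphase-promoting complex, gave 9.76, 10.06 and 10.13 log2 in the strong arrays, 10.96, 10.70 and 10.97 in the weak arrays and 11.24 and 11.00 in the scramble arrays. PLK1, a mitotic kinase, gave 8.0, 7.96 and 8.01 log2 in the strong arrays, 8.88, 9.17 and 8.57 in the weak arrays and 9.06 and 8.91 in the scramble arrays. CCNA2, a partner cyclin of CDK2, gave 9.40, 9.46 and 9.57 log2 in the strong arrays, 10.51, 10.57 and 9.99 in the weak arrays and 10.55 and 10.60 in the scramble arrays. CCNB1, the mitotic cyclin B1, gave 9.86, 10.36 and 10.44 log2 in the strong arrays, 10.94, 11.27 and 10.82 in the weak arrays and 11.39 and 11.09 in the scramble arrays. The weak arrays were close to scramble in each of these, except that the array labelled shCDK2 #3 at day 2 was the lowest weak array for PLK1, CCNA2 and CCNB1.

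Of 45 genes of E2F and DNA replication, 15 were lower in all strong arrays and 0 higher, beside 24.5% and 14.5% of all genes, with a median of -0.32 log2. Without the array labelled shCDK2 #3 at day 2, 23 were lower, beside 4322 of all 12845 genes. MCM3, a subunit of the replicative helicase, gave 10.68, 10.98 and 10.74 log2 in the strong arrays, 11.47, 11.55 and 11.15 in the weak arrays and 11.31 and 11.55 in the scramble arrays. GINS2, another helicase component, gave 9.0, 9.02 and 9.24 log2 in the strong arrays, 9.63, 9.68 and 9.69 in the weak arrays and 10.21 and 9.60 in the scramble arrays. CCNE2, which encodes a cyclin that activates CDK2, had a higher mean in the strong arrays and gave 8.14, 7.16 and 7.99 log2 in the strong arrays, 7.99, 7.74 and 5.29 in the weak arrays and 7.44 and 7.71 in the scramble arrays. The array labelled shCDK2 #3 at day 2 was 2.44 log2 below the nearest other weak array.

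Promoters of 3 of these genes are shown with the letters known from their control, TTTGAA, the cell cycle homology region, and TTTNNCGC, a core of E2F sites, in capitals on either strand. The CDC20 promoter lies at chr1:43358731-43359030 (plus strand), the PLK1 promoter at chr16:23678639-23678938 (plus strand) and the GINS2 promoter at chr16:85688905-85689204 (minus strand), all from RefSeq on GRCh38.p14.
CDC20: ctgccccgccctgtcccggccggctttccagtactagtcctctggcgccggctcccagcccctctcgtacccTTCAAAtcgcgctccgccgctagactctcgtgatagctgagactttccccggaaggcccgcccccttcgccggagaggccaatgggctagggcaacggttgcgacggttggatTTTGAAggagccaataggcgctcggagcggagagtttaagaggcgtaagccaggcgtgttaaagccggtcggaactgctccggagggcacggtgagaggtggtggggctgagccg
PLK1: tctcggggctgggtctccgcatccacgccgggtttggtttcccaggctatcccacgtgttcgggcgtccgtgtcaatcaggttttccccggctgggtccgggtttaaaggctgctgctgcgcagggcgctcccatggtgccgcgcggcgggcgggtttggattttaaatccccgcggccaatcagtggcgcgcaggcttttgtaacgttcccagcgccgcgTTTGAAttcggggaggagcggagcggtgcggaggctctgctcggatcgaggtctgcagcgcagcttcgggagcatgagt
GINS2: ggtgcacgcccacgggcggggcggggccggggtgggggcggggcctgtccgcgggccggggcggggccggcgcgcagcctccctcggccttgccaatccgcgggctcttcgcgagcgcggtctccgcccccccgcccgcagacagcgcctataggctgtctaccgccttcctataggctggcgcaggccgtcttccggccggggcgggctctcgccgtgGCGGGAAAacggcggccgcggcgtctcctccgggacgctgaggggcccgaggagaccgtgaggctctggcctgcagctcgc
TTTGAA starts 178 and 65 bases before the start of CDC20 and 29 bases before that of PLK1, and the E2F letters start 31 bases before that of GINS2. TTTGAA was in 26 of 40 promoters of the G2/M list (65.0%), in 10.3% of those of all examined genes and in 15.4% of all promoters. TTTNNCGC was in 24 of 39 promoters of the E2F list (61.5%), in 9.82% of those of all examined genes and in 6.90% of all promoters. Among the genes apart and higher, 15.1% held TTTGAA and 6.72% TTTNNCGC.

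Genes of ribosome assembly had 15 of 38 members lower in all strong arrays and 0 higher, beside 24.5% and 14.5% of all genes, with a median of -0.31 log2. With the array labelled shCDK2 #3 at day 2 left out, 18 were lower, beside 4322 of all 12845 genes. BOP1, which matures the large ribosomal subunit, gave 8.58, 8.98 and 9.18 log2 in the strong arrays, 9.57, 9.74 and 9.52 in the weak arrays and 10.20 and 9.62 in the scramble arrays. BYSL, needed for the small subunit, gave 8.55, 8.34 and 8.71 log2 in the strong arrays, 9.35, 9.21 and 9.01 in the weak arrays and 9.89 and 9.09 in the scramble arrays. Scramble at day 2 was the highest of the 8 arrays for both. Mitochondrial ribosome and translation genes had 16 of 36 lower and 1 higher, with a median of -0.34, or 20 lower and 1 higher without that array. MRPL12 gave 10.02, 10.12 and 10.39 log2 in the strong arrays, 10.80, 10.78 and 10.81 in the weak arrays and 11.53 and 10.74 in the scramble arrays. Heat shock and chaperonin genes had 8 of 22 lower and 0 higher, or 12 and 0 without that array. CCT2, a chaperonin subunit, gave 11.09, 11.24 and 11.47 log2 in the strong arrays, 11.72, 11.89 and 11.76 in the weak arrays and 11.92 and 11.68 in the scramble arrays. Of peroxiredoxin, thioredoxin and NRF2 target genes, 6 of 24 were lower, a share close to the 24.5% of all genes, and 1 was higher and apart. 10 were lower, 2 of them apart, and 2 were higher without the array labelled shCDK2 #3 at day 2. Of all 12845 genes, 4322 were then lower and 2801 higher. PIR, an iron-binding nuclear protein induced by NRF2, gave 6.42, 6.70 and 7.22 log2 in the strong arrays, 8.62, 8.74 and 7.72 in the weak arrays and 8.93 and 8.36 in the scramble arrays. NQO1, a quinone reductase and classical NRF2 target, gave 8.49, 8.99 and 8.52 log2 in the strong arrays, 10.33, 10.22 and 9.27 in the weak arrays and 10.07 and 10.07 in the scramble arrays. It was lower in all strong arrays on 1 of its 2 probe sets. TXNIP, which binds and inhibits thioredoxin, went the other way and gave 12.60, 12.13 and 12.04 log2 in the strong arrays, 10.05, 9.37 and 10.82 in the weak arrays and 9.26 and 9.64 in the scramble arrays.

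The lower genes with the widest gaps, chosen after their values were seen, were ROPN1L, MGST1, PEMT, ECSIT and TOMM22. ROPN1L, a gene of the sperm flagellum and cilia, gave 6.20, 7.31 and 7.24 log2 in the strong arrays, 8.48, 8.23 and 8.44 in the weak arrays and 9.10 and 8.25 in the scramble arrays. MGST1, a microsomal glutathione transferase, gave 10.85, 10.73 and 10.56 log2 in the strong arrays, 11.81, 11.56 and 11.52 in the weak arrays and 11.58 and 11.44 in the scramble arrays. PEMT, which makes phosphatidylcholine from phosphatidylethanolamine, gave 9.57, 9.82 and 9.71 log2 in the strong arrays, 10.73, 10.75 and 10.43 in the weak arrays and 10.74 and 10.79 in the scramble arrays. ECSIT, an assembly factor of respiratory complex I, differed by -0.76, and TOMM22, a subunit of the mitochondrial import pore, by -0.74. Within the strong side these 5 differed among themselves by at most 1.11 log2, in ROPN1L.

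Lower genes were more frequent among dim genes, and the background of the arrays differed between the sides. Of the dimmest of 4 equal bins of genes by mean signal, 1100 of 3212 were lower in all strong arrays and 242 higher, against 590 and 553 of 3211 in the brightest bin. The median difference was -0.18 log2 in the dimmest bin and -0.01 in the brightest. Background probe sets of 6 classes of GC content averaged 6.27, 6.38 and 6.02 log2 in the strong arrays, 6.55, 6.60 and 6.46 in the weak arrays and 6.32 and 6.60 in the scramble arrays. The sides did not overlap in that background, and its part in the lower values was not tested. Of 5019 genes without overlap, 62.8% were lower. The share was 72.0% after quantile normalization, 54.9% after median centring and 55.3% with a filter at the 60th percentile. The bioB spike-in, which also did not overlap, averaged 9.24, 9.28 and 8.71 log2 in the strong arrays, 9.52, 9.45 and 9.35 in the weak arrays and 9.21 and 9.37 in the scramble arrays. The difference between 3′ and 5′ probe sets of actin, a sign of RNA quality, was 1.55, 1.83 and 1.69 log2 in the strong arrays, 1.65, 1.84 and 1.68 in the weak arrays and 2.06 and 1.68 in the scramble arrays, and overlapped between the sides.

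Markers of lymphoid, erythroid, megakaryocyte, fibroblast and epithelial cells had list medians close to that of all genes. Of all genes, 14.5% were higher in all strong arrays, 24.5% were lower and 1.12% were apart and higher. The lymphoid list had 2 of 13 members higher, 3 lower and a median of -0.15 log2, with a median signal of 7.33, 7.25 and 7.13 log2 in the strong arrays, 7.41, 7.50 and 7.32 in the weak arrays and 7.29 and 7.67 in the scramble arrays. CD3D, a T cell receptor chain, was its most different member and gave 11.27, 10.85 and 9.54 log2 in the strong arrays, 9.31, 8.96 and 9.48 in the weak arrays and 8.81 and 8.82 in the scramble arrays, while CD3E and CD3G lay between 5.52 and 6.48 log2 on all arrays. The erythroid and megakaryocyte list had 1 of 7 higher and 2 lower, with a median of -0.07. CD9, a tetraspanin of platelets and many other cells, gave 11.24, 10.93 and 11.16 log2 in the strong arrays, 8.51, 8.25 and 8.90 in the weak arrays and 8.06 and 8.23 in the scramble arrays and was apart. The fibroblast and epithelial list had 1 of 9 higher and 2 lower, with a median of -0.18. Without the array labelled shCDK2 #3 at day 2, the lymphoid list had 2 higher and 5 lower. The erythroid and megakaryocyte list then had 2 higher and 2 lower, and the fibroblast and epithelial list 2 higher and 3 lower. FN1, the fibronectin gene, was high in 1 array and gave 6.19, 9.40 and 6.85 log2 in the strong arrays, 5.93, 5.98 and 6.11 in the weak arrays and 5.89 and 6.11 in the scramble arrays. Of 5 eosinophil, basophil and mast cell genes examined, 3 were higher in all strong arrays and 0 apart, with a median of 1.08 log2, and 2 were apart without the array labelled shCDK2 #3 at day 2. GATA2, a transcription factor of these lineages and of progenitors and 1 of the 3, gave 12.31, 12.04 and 12.02 log2 in the strong arrays, 11.05, 10.81 and 10.56 in the weak arrays and 10.49 and 10.98 in the scramble arrays.

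Within the strong side the arrays were not alike. #10 at day 2 and #10 at day 5 differed by 1 log2 or more in 457 genes, #10 at day 5 and #3 at day 5 in 358 and #10 at day 2 and #3 at day 5 in 192. A strong and a weak array differed in 682 to 1225 genes. The sides were chosen from these same values, so the larger counts between them are no support for the grouping. #10 at day 5 was 1 log2 or more above both other strong arrays for 141 genes and below them for 77. TCN1, a vitamin B12 carrier of secondary granules, gave 5.80, 10.83 and 6.50 log2 in the strong arrays, 5.94, 5.87 and 5.95 in the weak arrays and 5.80 and 6.12 in the scramble arrays and was near scramble in every array but #10 at day 5. CXCL2 gave 6.66, 11.28 and 7.61 log2 in the strong arrays, 6.27, 6.41 and 6.29 in the weak arrays and 6.37 and 6.61 in the scramble arrays. FCN1, the ficolin gene of monocytes, gave 9.57, 7.49 and 9.73 log2 in the strong arrays, 8.34, 8.12 and 8.10 in the weak arrays and 7.96 and 8.74 in the scramble arrays, and MGAM, a maltase gene, gave 8.02, 6.15 and 8.16 log2 in the strong arrays, 5.68, 5.26 and 5.61 in the weak arrays and 5.25 and 5.41 in the scramble arrays, both with #10 at day 5 the lowest strong array. The weak and scramble values of MGAM all lay under 5.83 log2, so it was examined only through the strong arrays. #10 at day 2 was above the other strong arrays for 20 genes and below them for 79. C3, the central complement gene, gave 6.37, 11.44 and 10.18 log2 in the strong arrays, 6.26, 7.48 and 6.82 in the weak arrays and 6.60 and 7.49 in the scramble arrays, with #10 at day 2 at its scramble level. RBP4, a retinol carrier, gave 10.51, 7.03 and 8.16 log2 in the strong arrays, 9.51, 8.73 and 7.71 in the weak arrays and 8.66 and 9.26 in the scramble arrays, with #10 at day 2 the highest array of all. #3 at day 5 stood apart least, above for 6 genes and below for 17. DUSP3, a phosphatase gene, gave 7.77, 8.20 and 9.37 log2 in the strong arrays, 6.79, 6.74 and 7.92 in the weak arrays and 7.13 and 7.27 in the scramble arrays, and CLU, the clusterin gene, gave 8.36, 9.60 and 6.61 log2 in the strong arrays, 7.30, 7.57 and 7.24 in the weak arrays and 7.26 and 7.01 in the scramble arrays.

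Within the weak side, the #1 arrays differed from each other by 1 log2 or more in 113 genes. The array labelled shCDK2 #3 at day 2 differed from #1 at day 2 in 286 genes and from #1 at day 5 in 472. It was 1 log2 or more above both #1 arrays for 119 genes and below them for 72. Set against both #1 arrays and both scramble arrays, it was above by 1 log2 or more for 65 genes, and all 3 strong arrays were above by as much for 26 of these. NEDD9, an adhesion scaffold gene, was one of them, with 9.01, 8.82 and 9.45 log2 in the strong arrays, 5.24, 5.03 and 7.43 in the weak arrays and 5.33 and 4.74 in the scramble arrays. For 20 of the 65, no strong array was above by 1 log2. DHCR7, HMGCS1 and SCD were 3 of these, named after their values were seen. DHCR7, the last enzyme of cholesterol synthesis, gave 9.05, 9.54 and 9.48 log2 in the strong arrays, 9.01, 9.46 and 10.92 in the weak arrays and 9.47 and 8.96 in the scramble arrays. HMGCS1, an early enzyme of that pathway, gave 9.76, 10.33 and 10.56 log2 in the strong arrays, 8.88, 9.63 and 11.61 in the weak arrays and 9.48 and 9.10 in the scramble arrays. SCD, the stearoyl-CoA desaturase gene, gave 12.12, 11.74 and 11.86 log2 in the strong arrays, 10.67, 10.61 and 12.67 in the weak arrays and 11.29 and 9.94 in the scramble arrays. The cholesterol list as a whole had a median of -0.20 log2 between the sides and 0.11 without this array. THBS1, the thrombospondin gene, gave 10.86, 12.85 and 11.53 log2 in the strong arrays, 9.89, 10.92 and 6.59 in the weak arrays and 9.12 and 9.46 in the scramble arrays, and CCL2, a monocyte chemoattractant, gave 10.94, 14.05 and 12.42 log2 in the strong arrays, 10.91, 12.09 and 7.94 in the weak arrays and 10.25 and 11.29 in the scramble arrays, both with this array the lowest of all 8. In #1 at day 5, METTL9 gave 12.04, 10.25 and 11.79 log2 in the strong arrays, 10.84, 8.69 and 10.77 in the weak arrays and 10.86 and 10.85 in the scramble arrays, the lowest value of the 8 arrays. In #1 at day 2, CCL5 gave 12.01, 13.42 and 13.25 log2 in the strong arrays, 9.97, 11.60 and 12.54 in the weak arrays and 11.27 and 11.62 in the scramble arrays, again the lowest of the 8.

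**Figure D5:**
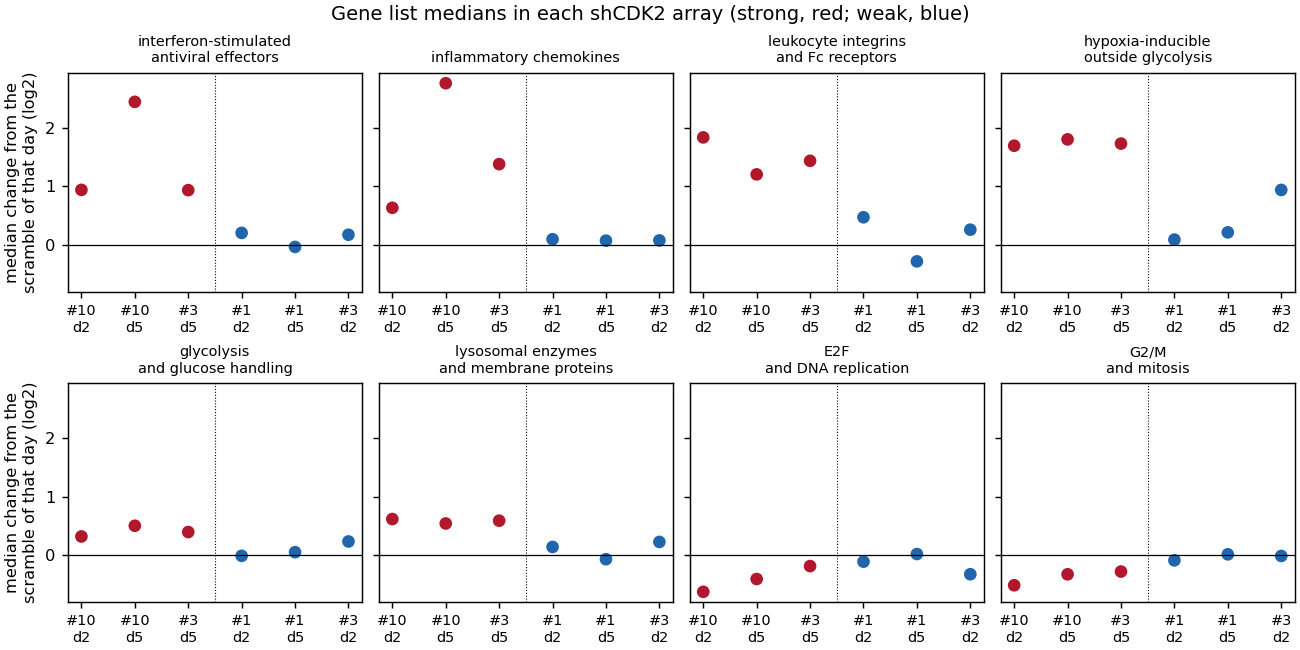
Median change from the scramble array of the same day (log2) for 8 gene lists, 1 point per shCDK2 array, strong arrays left of the dotted line and weak arrays right of it. For hypoxia-inducible genes the array labelled shCDK2 #3 at day 2 has 0.94 log2, between the other weak arrays (0.09 and 0.21) and the strong arrays (1.70 to 1.81).

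The strong side holds 2 day 5 arrays and the weak side 1, so the change with time was examined in the constructs whose arrays stay on 1 side. Hairpin #3 was left out, because its 2 arrays lie on different sides and day cannot be told from side in it. Those 2 arrays differed by 1 log2 or more in 776 genes. Day 5 was set against day 2 in #10, #1 and scramble with construct as a block (limma, 6 arrays, 2 residual degrees of freedom). No gene passed in either direction, with 0 of 12845 called higher (0%) and 0 called lower (0%) after Benjamini-Hochberg adjustment. In either direction, 1041 of the 12845 genes had an unadjusted p under 0.05 in limma. These p-values rest on how far the day change differed among #10, #1 and scramble. The 0 calls therefore do not show that nothing changed with time. Of the 144 genes apart, 27 were higher and 3 lower at day 5 at an unadjusted p under 0.05 in limma, beside the 1041 of 12845 in either direction. The genes were chosen with #10 at day 5 among the strong arrays, and it was highest for 85 of them. Nothing is therefore read from these 2 counts. The median change with time of the 144 genes was 0.45 log2 in #10, -0.13 in #1 and 0.43 in scramble. Their median difference between the sides, 2.23, is large because the genes were chosen for it. The change with time therefore cannot be weighed against it. MMP9, chosen after its values were seen, changed by 1.03 in #10, 1.13 in #1 and 1.36 in scramble (mean 1.17, SE 0.12, adjusted p = 0.551 in limma). CDK2 changed by 0.54 in #10, 0.11 in #1 and -0.91 in scramble (mean -0.09, SE 0.28, adjusted p = 0.934 in limma). Antiviral effectors had a median change with time of 1.89 log2 in #10, -0.11 in #1 and 0.16 in scramble, and chemokines 2.26, 0.17 and 0.17. Integrin and Fc receptor genes had -0.38 in #10, -0.17 in #1 and 0.24 in scramble.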

How the data were processed

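RNA of 8 NB4 samples was measured on Affymetrix expression arrays, 1 array for each of 4 constructs at 2 days. The authors deposited 1 table of 49395 probe sets with values that range like log2 signals, made with Partek per the submitters' processing notes. How they were background-corrected and normalized is not given in the sources used here. With 1 array per condition, precision is limited. In the platform annotation 44994 probe sets had 1 gene, 1832 several and 2569 none, and 44967 were matched by Entrez ID to RefSeq symbols. The brightest probe set by mean signal stood for each gene, and genes whose mean over 8 arrays exceeded the 40th percentile of probe sets (5.83 log2) were kept. Values of the other probe sets of a gene are given for some genes only. The sides were chosen from measured values, and the members and gene lists were chosen with earlier results of these data known. Strong and weak arrays were compared by description only (Python 3.11.15, pandas 2.3.3, numpy 2.4.6). Day 5 was tested against day 2 in limma 3.58.1 (R 4.3.3) with Benjamini-Hochberg adjustment, which was checked on simulated data. The genes named were CDK2, the 12 with the widest gap in each direction among those apart by 1 log2 (passing over uncharacterised and noncoding symbols), up to 4 per list with the largest mean difference, up to 4 above and 4 below per array with the largest distance from the rest of its side, and up to 5 called per direction in the day test, of which none was called. Others named for contrast within a list were chosen after their values were seen. Promoter letters were searched on both strands of RefSeq promoters. Alternatives were quantile normalization, median centring, the mean of probe sets, no filter, a filter at the 60th percentile, other gaps, changes from scramble and each array left out. A floor on the weak mean was added after seeing the data. Construct took the place of the block in the day test.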

Additional observations from a re-analysis of the deposited data

Results flagged for a closer look

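For 8 of the named genes the change from day 2 to day 5 ran in opposite directions in hairpins #10 and #1, by more than 0.5 log2 each. The difference between the hairpins was not tested, since each construct had 1 array a day. Antiviral genes were 4 of the 8. IFIT1 was 3.68 log2 higher at day 5 in #10 and changed by -0.61 in #1, a difference of 4.29. CMPK2 changed by 3.06 and -0.52, a difference of 3.59, IFIT3 by 2.72 and -0.55, a difference of 3.27, and IFIT2 by 1.40 and -0.83, a difference of 2.23. TNFSF10, the TRAIL gene, changed by 1.97 in #10 and -0.67 in #1, a difference of 2.63. FCER1G, the Fc receptor chain, changed by 1.61 in #10 and -0.58 in #1, a difference of 2.19. MS4A3, of granulocyte precursors, changed by 1.95 in #10 and -0.90 in #1, a difference of 2.85. CCNA1, which encodes the cyclin A1 of germ cells and myeloid leukaemia, changed by 2.11 in #10 and -0.52 in #1, a difference of 2.63.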

How the results depend on the processing

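The count of 144 genes apart and higher was 123 after quantile normalization, 162 after median centring, 153 without a filter, 115 with the filter at the 60th percentile, 107 as changes from scramble, and 127 where the weak mean also had to pass the filter value (an alternative chosen after seeing the data). It was 78 with the mean of probe sets, 57 with a gap of 1.5, 432 with a gap of 0.5, 240 in all 3 disjoint pairs, and 162 to 237 with 1 array left out, highest without the array labelled shCDK2 #3 at day 2. Fewer arrays make a gap easier to reach. The 0 lower genes were 1 after quantile normalization (ROPN1L), 20 with a gap of 0.5 and 0 to 2 with 1 array left out. Genes higher without overlap were 2102 to 2816 and lower 3556 to 4322 with 1 array left out, and lower ones 1978 with the filter at the 60th percentile, where fewer genes were examined. The ratio of the smallest strong to the largest weak response was 8.67 at 2 log2 and 1.52 at 0.5 log2. Of the 144 genes, 94 were still apart by 1 log2 as changes from scramble, and 74 of the 120 examined with the mean of probe sets. Changes of sign were counted only for list medians above a set size. List medians changed sign in 3 cases, to -0.0366 for CDKs and cyclins after quantile normalization, to -0.0283 for p53 targets without #10 at day 2 and to 0.113 for cholesterol synthesis without the array labelled shCDK2 #3 at day 2. Medians of CDKs and cyclins (0.117 log2) and p53 targets (0.106) were small to begin with, beside -0.088 for all genes. With 1 array left out, p53 targets ranged from -0.0283 to 0.283 and cholesterol synthesis from -0.322 to 0.113. The cause was not tested. The day test gave 0 calls under each of its alternatives, with 366 to 1818 genes at an unadjusted p under 0.05. Without replicate arrays, dim genes and small lower differences are the least certain.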

Other observations

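Among genes apart and higher that stood in no list, and were chosen after their values were seen, several encode receptors of the myeloid surface. IL3RA, the interleukin 3 receptor chain, gave 9.06, 9.91 and 9.33 log2 in the strong arrays, 6.75, 6.26 and 6.66 in the weak arrays and 6.60 and 7.22 in the scramble arrays. ADGRE1, an adhesion receptor whose mouse counterpart marks macrophages, gave 8.48, 8.08 and 9.02 log2 in the strong arrays, 5.54, 5.82 and 5.62 in the weak arrays and 5.50 and 6.41 in the scramble arrays. NRP1, a co-receptor for vascular endothelial growth factor and semaphorins, gave 8.91, 10.07 and 8.87 log2 in the strong arrays, 6.64, 6.70 and 5.30 in the weak arrays and 5.08 and 6.48 in the scramble arrays. CR1, a complement receptor, gave 10.07, 8.88 and 10.03 log2 in the strong arrays, 6.80, 5.77 and 7.57 in the weak arrays and 6.20 and 5.96 in the scramble arrays. CD69, an early activation marker of leukocytes, gave 9.43, 10.38 and 9.82 log2 in the strong arrays, 6.17, 7.16 and 7.60 in the weak arrays and 6.43 and 6.06 in the scramble arrays. CD44, a receptor for hyaluronan, gave 13.05, 12.35 and 12.57 log2 in the strong arrays, 10.95, 10.72 and 11.13 in the weak arrays and 10.61 and 11.27 in the scramble arrays. Both scramble arrays also lay below every strong array in all 6. For CR1 and CD69 the array labelled shCDK2 #3 at day 2 was the highest weak one.

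Other genes apart and higher outside the lists, again chosen for their values, encode regulators and enzymes. BCL6, a transcriptional repressor, gave 8.53, 9.73 and 9.03 log2 in the strong arrays, 6.12, 6.33 and 6.04 in the weak arrays and 5.90 and 6.42 in the scramble arrays. AHR, the aryl hydrocarbon receptor, gave 10.17, 9.72 and 10.29 log2 in the strong arrays, 7.74, 7.94 and 7.71 in the weak arrays and 7.21 and 8.03 in the scramble arrays. ALOX5AP, which is needed for leukotriene synthesis, gave 11.95, 12.62 and 11.76 log2 in the strong arrays, 9.53, 9.46 and 7.35 in the weak arrays and 7.84 and 9.60 in the scramble arrays. NAMPT, an enzyme that makes a precursor of NAD, gave 10.26, 12.08 and 10.40 log2 in the strong arrays, 8.03, 8.06 and 8.49 in the weak arrays and 8.03 and 7.47 in the scramble arrays. TYROBP, a signalling adaptor of myeloid receptors, gave 11.59, 11.98 and 11.76 log2 in the strong arrays, 10.37, 10.44 and 9.62 in the weak arrays and 9.58 and 10.98 in the scramble arrays. For ALOX5AP and TYROBP the array labelled shCDK2 #3 at day 2 was the lowest weak one and lay near scramble at day 2.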
